A study of Mus musculus with 8 samples.

Results

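The genes described here encode the vascular endothelial growth factors (VEGF) and angiopoietins with their receptors. They are the ligand genes Vegfa, Vegfb, Vegfc, Pgf, Angpt1 and Angpt2 and the receptor genes Kdr, Flt1, Flt4 and Tek. These 10 genes were chosen by symbol, mapped through GENCODE M21 to the Ensembl IDs of the deposited count file, out of 50143 gene IDs in all. RNA sequencing counted their transcripts in 8 tumours. Each had formed from cells of the mouse breast adenocarcinoma line Py230 injected into mammary gland 4, and the hosts were female C57BL/6 mice. The tumours fall into 4 from obese mice, on a high-fat diet with 60% of calories from fat (5.1 kcal/g), and 4 from lean mice, on a regular diet with 10% (3.6 kcal/g). All mice had been ovariectomized at 6 weeks of age and went onto their diets 2 weeks later, for 6 weeks. Mice on the high-fat diet put on 35% in body weight on average, and the tumours were taken at day 56 after tumour initiation. The labels name no batch, date or pooling, and do not say whether each tumour came from a mouse of its own. If tumours shared a mouse, p-values would measure the spread between tumours and not between mice.

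Libraries held 25.7 to 66.7 M counts in obese tumours and 39.0 to 53.7 M in lean tumours. A principal component analysis of the 1000 most variable genes placed obese replicate 3 at −12.9 on its leading axis (88.6% of variance), between the remaining obese tumours (96.5 to 136) and the lean tumours (−93.7 to −70.2). The 7 epithelial markers summed to 62.7, 287, 825 and 245 CPM (counts scaled to library size with TMM factors) in obese replicates 1 to 4, against 2030 to 3070 CPM in the lean tumours. The library labelled obese replicate 3 thus lies nearest the lean tumours among the obese ones on both measures. Counts per gene do not separate transcript isoforms, so the membrane-bound and soluble products of Flt1 are added together.

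VEGF proteins are secreted dimers that bind receptor tyrosine kinases on endothelial cells. Vegfa binds the products of both Kdr and Flt1, Kdr carries most of the signal for endothelial growth, and Flt1 binds the ligand tightly with weak kinase output and so can act as a sink. Vegfb and Pgf bind Flt1 and not Kdr, and Vegfc acts through Flt4, mainly on lymphatic endothelium. The angiopoietins share the receptor Tek: Angpt1, made largely by perivascular and stromal cells, activates it and steadies vessels, whereas Angpt2, released by activated endothelium, mostly opposes Angpt1 during vessel remodelling. In tumours, low oxygen raises Vegfa through hypoxia-inducible factors, which bind DNA at ACGTG or GCGTG.

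RefSeq promoter windows, running from 250 bases before to 50 bases after a gene's start (GRCm38.p6, gene strand, 5′ to 3′), were found for 8 of the 10 genes, all but Angpt1 and Angpt2. The windows of the Vegfa receptors Kdr and Flt1 and of their ligands Vegfa, Vegfb and Pgf are shown, since these promoters could hold the hypoxia motif. Capitals mark the motif ACGTG or the related motif GCGTG, on either strand. A palindrome made of ACGTG and its reverse complement would match on both.
Kdr, chr5:75978406-75978705, minus strand: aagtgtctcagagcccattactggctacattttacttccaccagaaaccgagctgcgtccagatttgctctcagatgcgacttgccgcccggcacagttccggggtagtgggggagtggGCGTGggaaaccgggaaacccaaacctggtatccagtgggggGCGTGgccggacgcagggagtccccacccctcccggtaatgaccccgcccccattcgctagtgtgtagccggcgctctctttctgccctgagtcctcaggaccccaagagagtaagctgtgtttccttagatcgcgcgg
Flt1, chr5:147725962-147726261, minus strand: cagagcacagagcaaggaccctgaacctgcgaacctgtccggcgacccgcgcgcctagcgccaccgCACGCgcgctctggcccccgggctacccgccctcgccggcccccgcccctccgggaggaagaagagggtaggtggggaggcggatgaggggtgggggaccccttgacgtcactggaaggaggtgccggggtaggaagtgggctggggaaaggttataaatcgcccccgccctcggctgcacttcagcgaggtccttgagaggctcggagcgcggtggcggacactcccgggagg
Vegfa, upstream start, chr17:46032328-46032627, minus strand: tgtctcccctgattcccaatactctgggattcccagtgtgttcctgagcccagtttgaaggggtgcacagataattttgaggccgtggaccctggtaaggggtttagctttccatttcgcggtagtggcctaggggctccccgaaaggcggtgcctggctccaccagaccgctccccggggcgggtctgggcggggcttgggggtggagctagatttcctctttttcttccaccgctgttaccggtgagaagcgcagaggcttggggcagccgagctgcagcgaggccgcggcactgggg
Vegfa, start within the gene, chr17:46025114-46025413, minus strand: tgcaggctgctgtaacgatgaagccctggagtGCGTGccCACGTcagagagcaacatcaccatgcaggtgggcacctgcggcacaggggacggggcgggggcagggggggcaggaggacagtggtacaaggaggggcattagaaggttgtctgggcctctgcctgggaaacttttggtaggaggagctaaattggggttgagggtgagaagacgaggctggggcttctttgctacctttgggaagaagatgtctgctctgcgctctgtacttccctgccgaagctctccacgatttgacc
Vegfb, chr19:6987602-6987901, minus strand: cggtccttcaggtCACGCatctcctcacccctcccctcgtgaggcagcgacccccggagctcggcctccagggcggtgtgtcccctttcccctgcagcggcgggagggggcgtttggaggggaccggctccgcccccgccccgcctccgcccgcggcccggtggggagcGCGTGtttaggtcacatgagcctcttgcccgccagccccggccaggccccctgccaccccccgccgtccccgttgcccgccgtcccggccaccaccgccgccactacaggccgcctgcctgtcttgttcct
Pgf, chr12:85177264-85177563, minus strand: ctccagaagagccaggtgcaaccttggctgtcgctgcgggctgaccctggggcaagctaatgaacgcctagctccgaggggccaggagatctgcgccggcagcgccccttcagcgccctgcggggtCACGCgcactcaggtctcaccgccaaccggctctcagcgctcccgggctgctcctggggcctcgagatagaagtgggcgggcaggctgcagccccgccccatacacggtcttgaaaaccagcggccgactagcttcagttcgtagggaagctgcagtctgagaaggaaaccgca
Of 32851 such windows of all genes, 19.6% hold the first motif, 32.4% hold the related one and 43.8% hold either. Among the windows shown, ACGTG occurs in 1, that of the Vegfa start within the gene, 211 bases before that start, with the related motif 218 bases before it. That window lies wholly inside the Vegfa gene, so its matches can fall in coding exons and need not be promoter sequence. Which of these they are was not tested. The related motif also occurs 131 and 89 bases before the start of Kdr, 184 before that of Flt1, 124 before that of Pgf, and 237 and 81 before that of Vegfb. The upstream Vegfa window holds neither, nor do the windows of Tek, Vegfc and Flt4 and a further Pgf window, which are not shown. A match is only a run of letters, and these windows do not reach further upstream.

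Tumours of obese mice had less RNA of most of these genes, with exceptions in each branch of the system. Vegfb and Angpt2 rose, Pgf, Vegfc, Angpt1, Flt1, Flt4 and Tek fell, and Vegfa and Kdr did not pass the test. In bulk tumour RNA, fewer cells of a type and less RNA per cell cannot be told apart. All 10 genes passed the filter on low counts, which kept 14887 genes. By edgeR's quasi-likelihood test with Benjamini-Hochberg adjustment over those genes, 2 of the 10 were called higher and 6 lower at an adjusted p under 0.05. Over all tested genes 59.2% were called, 30.9% higher and 28.4% lower, so the count of higher genes is near that background and the count of lower genes is above it. Of all calls, 52.1% were higher, or 41.2% with upper quartile factors. The median log2 change was −1.23 over the 10 genes and −0.038 over all tested genes. Other scalings moved the median of all genes to −0.25 (upper quartile factors) or −0.22 (library size only), and under each scaling tried the 8 called genes kept their direction. Without lean replicate 2, the number called lower was 3, as Vegfc, Angpt1 and Tek missed the threshold. The groups did not overlap for 1 gene that was higher in every obese tumour (Vegfb) and for 4 that were lower (Pgf, Angpt1, Flt1 and Flt4), that is 5 of 10 against 57% of all tested genes. By direction the background was 28.9% higher and 28.1% lower.

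**Figure D1:**
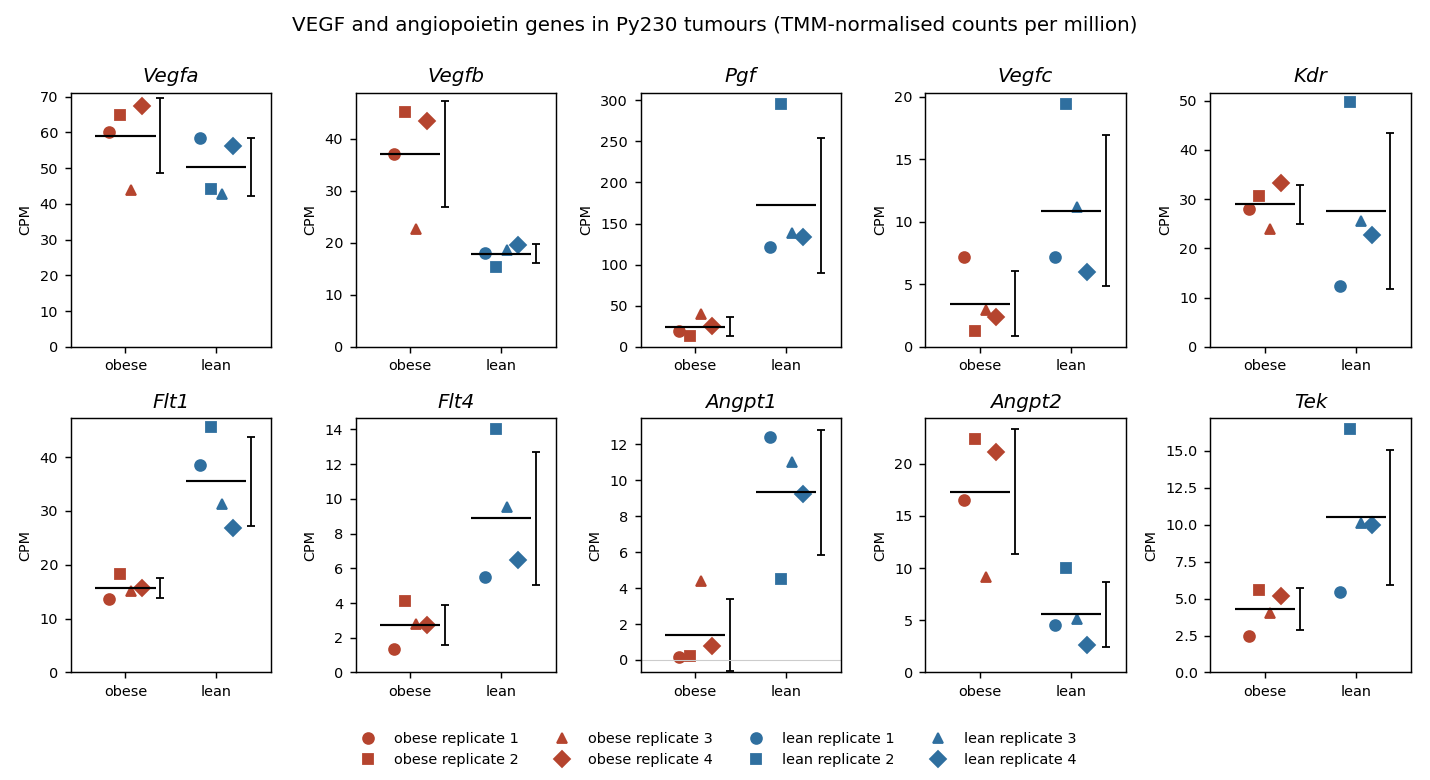
TMM-normalised level (CPM) of each gene in every tumour (linear axes), obese left and lean right; horizontal lines are group means and bars at the side are ± 1 SD (n = 4). All obese points lie above the lean ones for Vegfb, from 22.7 CPM up, and below them for Pgf, Angpt1, Flt1 and Flt4.

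Vegfa, the main growth factor of blood vessels (chromosome 17, 46016993 to 46032369), was about as abundant in both groups. It stood at 60.2, 64.9, 43.9 and 67.5 CPM in obese replicates 1 to 4, against 58.3, 44.1, 42.7 and 56.2 CPM in lean replicates 1 to 4. The groups overlap, with obese replicate 3 at the level of the lower lean tumours. The log2 change, obese minus lean, was 0.23 ± 0.18 (SE) with a 95% interval of −0.17 to 0.64 (edgeR adjusted p = 0.276), and limma-voom with sample quality weights gave 0.42 (limma adjusted p = 0.0277). Without obese replicate 3 the change was 0.36 (edgeR adjusted p = 0.0691), and upper quartile scaling gave 0.02 (edgeR adjusted p = 0.94). The interval leaves room for a rise of up to 0.64 on the log2 scale.

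Vegfb, a ligand of Flt1 (chromosome 19, 6982473 to 6987651), rose. It stood at 37.1, 45.2, 22.7 and 43.4 CPM in obese replicates 1 to 4, against 18.1, 15.3, 18.7 and 19.5 CPM in lean replicates 1 to 4. The lowest obese value, in obese replicate 3, is above every lean value. The change was 1.05 ± 0.22, a 2.07-fold rise (edgeR adjusted p = 0.00575), and 1.85 with offsets for GC content and exon length.

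Pgf, placental growth factor (chromosome 12, 85166635 to 85177790), fell. It stood at 19.2, 13.0, 40.0 and 25.7 CPM in obese replicates 1 to 4, against 122, 295, 138 and 133 CPM in lean replicates 1 to 4. Every obese tumour is below every lean one, and lean replicate 2 is far above the other lean tumours. The change was −2.82 ± 0.43, that is 7.04-fold lower in obese tumours (edgeR adjusted p = 0.0016), and −2.42 without lean replicate 2 (edgeR adjusted p = 0.00204). In lean tumours Pgf was the most abundant of the 10 genes per exon length.

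Vegfc, the lymphatic growth factor (chromosome 8, 54077606 to 54187096), stood at 7.18, 1.25, 2.96 and 2.38 CPM in obese replicates 1 to 4, against 7.15, 19.4, 11.2 and 5.95 CPM in lean replicates 1 to 4. The groups overlap through obese replicate 1, which is above lean replicates 1 and 4. The change was −1.67 ± 0.60 (edgeR adjusted p = 0.0419). The call held without obese replicate 1 (−2.30, edgeR adjusted p = 0.013) and without lean replicate 4 (0.0499). It was lost without obese replicates 2, 3 or 4, where the edgeR adjusted p was 0.0786, 0.0688 and 0.101, and without lean replicates 1, 2 or 3, where it was 0.0565, 0.105 and 0.0884. Vegfd, the closest relative of Vegfc, had a count of 0 in all 8 libraries, where 3 counts correspond to 0.0494 to 0.124 CPM (counting error only). Whether the counting could detect Vegfd RNA was not tested.

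**Figure D2:**
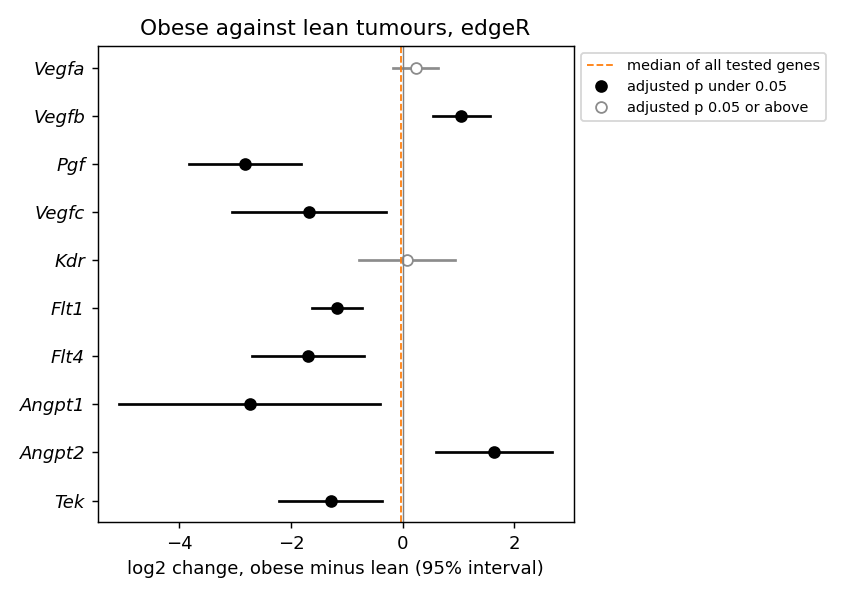
Log2 change of each gene, obese minus lean, with its 95% interval from edgeR (points and lines; filled points passed an adjusted p of 0.05). The dashed line is the median of all tested genes, −0.038; Vegfa (0.23) and Kdr (0.07) are the open points.

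The Vegfa receptors Kdr and Flt1, which lie on the same chromosome, differed in what the test showed. Kdr (chromosome 5, 75932827 to 75978458) stood at 28.0, 30.6, 23.9 and 33.3 CPM in obese replicates 1 to 4, against 12.4, 49.7, 25.5 and 22.7 CPM in lean replicates 1 to 4. The lean tumours span the obese range on both sides. The log2 change was 0.07 ± 0.38 (edgeR adjusted p = 0.88), with an interval of −0.79 to 0.93 that allows a change either way, and its sign turned with the scaling: upper quartile factors gave −0.14 and library size alone gave −0.13. The value was 0.52 without lean replicate 2 and −0.17 without lean replicate 1 (edgeR adjusted p = 0.125 and 0.647).

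Flt1 (chromosome 5, 147561604 to 147726011) stood at 13.7, 18.2, 15.2 and 15.7 CPM in obese replicates 1 to 4, against 38.5, 45.6, 31.2 and 26.9 CPM in lean replicates 1 to 4. The obese tumours lie close together and all below the lean ones. Flt1 fell with a change of −1.18 ± 0.19 (edgeR adjusted p = 0.00207), 2.26-fold lower in obese tumours, and the call held under all 17 alternatives, with changes from −1.39 to −0.97.

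Flt4, the receptor of Vegfc on lymphatic endothelium and on sprouting blood vessels (chromosome 11, 49609263 to 49652739), stood at 1.36, 4.14, 2.77 and 2.71 CPM in obese replicates 1 to 4, against 5.50, 14, 9.51 and 6.45 CPM in lean replicates 1 to 4. The groups do not overlap. Flt4 fell (−1.69 ± 0.44, edgeR adjusted p = 0.012), and the call held under all 17 alternatives.

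Of the angiopoietin ligands among the 10 genes, Angpt2 rose and Angpt1 fell. A further angiopoietin gene, Angpt4, stood at 1.34 ± 2.51 CPM in obese and 4.96 ± 2.66 CPM in lean tumours (SD, n = 4 each). It did not pass (log2 change −1.87 ± 1.49, SE, edgeR adjusted p = 0.299). Angpt2 (chromosome 8, 18690263 to 18741562) stood at 16.5, 22.4, 9.17 and 21.1 CPM in obese replicates 1 to 4, against 4.59, 9.96, 5.11 and 2.65 CPM in lean replicates 1 to 4. Only obese replicate 3 and lean replicate 2 overlap. The change was 1.63 ± 0.45, a 3.10-fold rise (edgeR adjusted p = 0.0158), and 1.85 without obese replicate 3. Angpt2 lies on the opposite strand within Mcph1, which also rose (log2 change 1.86, edgeR adjusted p = 0.00141), but they share 0 exon bases, and the strand setting of the counting is not given in the sources used here.

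Angpt1 (chromosome 15, 42424723 to 42676977) stood at 0.165, 0.231, 4.37 and 0.768 CPM in obese replicates 1 to 4, against 12.4, 4.52, 11 and 9.23 CPM in lean replicates 1 to 4. Of the obese tumours 3 had 4 to 32 counts of it, and obese replicate 3 had 226, just under the lowest lean tumour. The change was −2.74 ± 1.02 (edgeR adjusted p = 0.0463), and −4.54 without obese replicate 3 (edgeR adjusted p = 0.000832). Leaving out any other tumour ended the call, with edgeR adjusted p = 0.052 to 0.108, as did testing without a filter (0.0591). An antisense gene, Gm17473, covers 14.2% of the Angpt1 exon bases and had a count of 0 in all libraries.

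Tek, the angiopoietin receptor (chromosome 4, 94739289 to 94874976), stood at 2.44, 5.57, 4.00 and 5.18 CPM in obese replicates 1 to 4, against 5.43, 16.5, 10.1 and 10.0 CPM in lean replicates 1 to 4. Lean replicate 1 falls within the obese range. Tek fell (−1.29 ± 0.40, edgeR adjusted p = 0.0247), but not without obese replicate 1 (0.0521) or without lean replicate 2 (0.0571).

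The log2 ratio of Angpt2 to Angpt1 in each tumour, taken on log2(CPM + 0.1), was 5.97, 6.09, 1.05 and 4.61 in obese replicates 1 to 4, against −1.42, 1.12, −1.10 and −1.77 in lean replicates 1 to 4. Its mean was 4.43 ± 2.35 in obese and −0.79 ± 1.30 in lean tumours (SD, n = 4 each). The difference of 5.22 gave p = 0.0571 by a two-sided exact permutation test over 70 assignments, whose smallest possible p is 0.0286. Obese replicate 3 lies just below lean replicate 2, and without it the difference was 6.34 (exact p = 0.0286, the smallest possible there too). With a pseudocount of 1 CPM the difference was 3.87 (exact p = 0.0571).

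**Figure D3:**
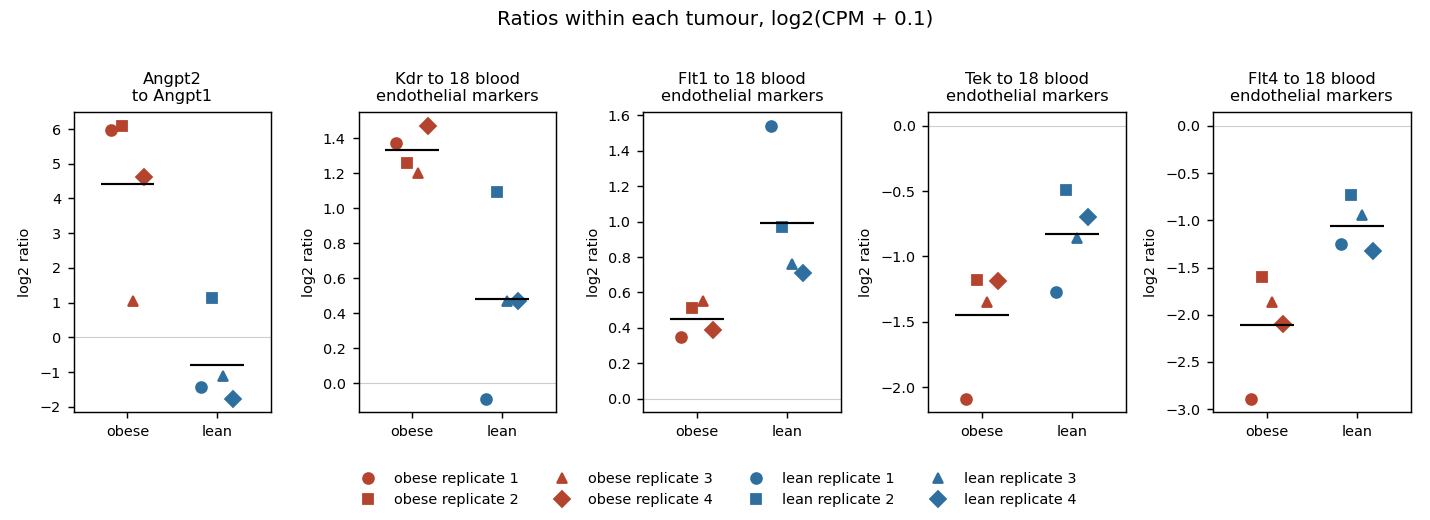
Log2 ratios within each tumour, on log2(CPM + 0.1): Angpt2 to Angpt1 at the left, then each receptor against the mean of 18 blood endothelial markers; lines are group means (n = 4). For Angpt2 to Angpt1, obese replicate 3 (1.05) lies beside lean replicate 2 (1.12), apart from the other obese tumours.

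The receptors are made mostly by endothelium, and its markers were partly lower too. For this list and the others, log2 changes are obese minus lean ± SE, and genes said to rise or fall had an edgeR adjusted p under 0.05. Of 18 blood endothelial markers 8 were called lower and 1 higher, against 28.4% and 30.9% of all tested genes. The median log2 change of the markers was −0.86, against −0.038 over all tested genes. Without obese replicates 1 or 4, or without lean replicates 2, 3 or 4, 4 of the 18 markers were called lower. Plvap, a protein of capillary diaphragms, stood at 23.8 ± 2.34 CPM in obese and 63.1 ± 11 CPM in lean tumours (SD, n = 4 each; log2 change −1.41 ± 0.16, SE), and the Tek partner receptor Tie1 at 11.3 ± 2.67 CPM in obese and 25.2 ± 7.13 CPM in lean tumours (−1.16 ± 0.27). Sox17, an arterial transcription factor, also fell (−1.63 ± 0.35). Eng, a TGF-beta co-receptor that mesenchymal cells and macrophages can also make, rose to 181 ± 31.1 in obese tumours, against 53.2 ± 8.23 CPM in lean ones (1.77 ± 0.17). The general endothelial markers Pecam1 and Cdh5, chosen after their values were seen, did not pass, with log2 changes of −0.24 ± 0.23 and −0.31 ± 0.30. The summed level of the list ran from 429 to 491 CPM in obese and from 369 to 609 CPM in lean tumours.

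Set against the mean of these markers in the same tumour, Kdr was higher and Flt1 and Flt4 were lower in obese tumours. The mean log2 ratio for Kdr was 1.33 ± 0.12 in obese and 0.48 ± 0.48 in lean tumours (SD, n = 4 each), and every obese tumour was above every lean one. For Flt1 it was 0.45 ± 0.10 in obese and 0.99 ± 0.38 in lean tumours, and for Flt4 −2.11 ± 0.56 in obese and −1.06 ± 0.28 in lean tumours, each with every obese tumour below every lean one. These 3 differences of 0.84, −0.54 and −1.05 reached the smallest possible exact p of 0.0286 (two-sided permutation test), or 0.0381 adjusted over the 4 receptors. Tek, at −1.45 ± 0.43 in obese and −0.83 ± 0.33 in lean tumours, gave a difference of −0.62 (exact p = 0.0857). The Kdr result depends on how the markers are averaged: against their summed CPM, of which Eng is the largest part in obese tumours, the difference was 0.24 (exact p = 0.457), and with a pseudocount of 1 CPM it was 0.73 (exact p = 0.0571). Against the summed CPM the differences were −1.14 for Flt1, −1.65 for Flt4 and −1.22 for Tek (exact p = 0.0286 each). With 7 tumours, the exact p was 0.0571 for Kdr without any 1 of the obese tumours, 0.0571 to 0.0857 for Flt1 without any 1 of them, and 0.0571 for Flt4 without any 1 of the lean tumours. Without lean replicate 1 the Tek difference of −0.77 reached an exact p of 0.0286.

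Of 12 tested co-receptors and processing factors of these ligands, with Angpt4 counted among them, 2 were called higher and 5 lower, with a median log2 change of −0.96. In all, the share called was near the 59.2% of all tested genes. Nrp2, a co-receptor for Vegfc and semaphorins, stood at 620, 765, 362 and 536 CPM in obese replicates 1 to 4, against 30.3, 15.4, 13.2 and 11.6 CPM in lean replicates 1 to 4. All obese tumours were far above the lean ones, a rise of 5.02 ± 0.41 on the log2 scale (edgeR adjusted p = 0.000196). Plxnd1, a semaphorin receptor of vessels, also rose (1.57 ± 0.25), while the proprotein convertases Pcsk5 (−2.07 ± 0.41) and Pcsk7 (−1.19 ± 0.21), which can cut the Vegfc precursor, fell. The other listed convertase, Furin, was more abundant, at 147 ± 60.8 CPM in obese and 162 ± 20.3 CPM in lean tumours (SD). It did not pass (−0.14 ± 0.27, edgeR adjusted p = 0.665) and is named because of its values. Nrp1, a co-receptor of Kdr chosen after its values were seen, stood at 31.4 ± 9.57 CPM in obese and 53.3 ± 17.8 CPM in lean tumours and did not pass (edgeR adjusted p = 0.0597).

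Of 11 genes of tip cells or induced in endothelium by VEGF, 5 were called lower and 1 higher, with a median of −0.67 and a share called near the 59.2% of all tested genes. Without obese replicates 2 or 4, or without lean replicates 3 or 4, 3 were called lower, and with limma-voom and quality weights 8. The apelin receptor Aplnr stood at 10.0 ± 2.41 CPM in obese and 30.7 ± 10.6 CPM in lean tumours (SD, n = 4 each; −1.62 ± 0.31), and Cxcr4, a chemokine receptor that T cells also carry, at 26.9 ± 14.8 CPM in obese and 90.6 ± 25.1 CPM in lean tumours (−1.75 ± 0.38). The transcription factor Egr3 fell (−2.07 ± 0.49). The netrin receptor Unc5b rose to 165 ± 46.5 in obese tumours, against 42.5 ± 11.1 CPM in lean ones (1.96 ± 0.27).

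Among 10 angiogenesis inhibitors 2 were called higher and 2 lower, against 30.9% and 28.4% of all tested genes. The median of the inhibitors, −0.52, became 0.17 without lean replicate 2. Vash2, a relative of vasohibin known to promote vessel growth rather than inhibit it, stood at 42.9 ± 11.5 CPM in obese and 1.76 ± 1.61 CPM in lean tumours (SD, n = 4 each; 4.61 ± 0.84, or 5.20 without lean replicate 2). Vash1, which endothelial cells make in response to VEGF and which limits vessel growth, fell (−1.74 ± 0.40). Col18a1, the source of endostatin, rose (1.14 ± 0.32), and Timp3, a protease inhibitor that can block Kdr, fell (−3.08 ± 0.86, or −4.46 without obese replicate 3, whose 150 CPM was far above the 10.4 to 28.1 CPM of the other obese tumours).

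Of 18 genes of signalling below these receptors 4 were called higher and 7 lower, with a median of −0.50 and a share called again near 59.2%. With offsets for GC content and exon length 7 were called higher, and without lean replicate 3 the number was 2. The focal adhesion kinase gene Ptk2 rose (1.61 ± 0.22). The adaptor gene Nck2 (−1.57 ± 0.28), the transcription factor Foxo1 (−2.99 ± 0.69), which drives Angpt2 in endothelium, and the kinase subunit Pik3r1 (−2.46 ± 0.61) fell. Without obese replicate 3 the change was −4.14 for Foxo1 and −3.48 for Pik3r1.

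Most listed hypoxia regulators and targets rose, whereas Vegfa, a target, did not pass. Regulators in the list include Hif1a, Arnt (0.68 ± 0.13) and Vhl (0.29 ± 0.11), which were among the genes called higher. Of 20 genes other than Vegfa 17 were called higher and 2 lower, against 30.9% and 28.4% of all tested genes, with a median log2 change of 1.64, and 16 or 17 were higher whichever tumour was left out. The peptide hormone gene Adm stood at 191, 98, 67.7 and 155 CPM in obese replicates 1 to 4, against 8.91, 3.09, 4.82 and 5.24 CPM in lean replicates 1 to 4. The glucose transporter gene Slc2a1 (2.69 ± 0.27), the oxidoreductase gene Ero1l (2.40 ± 0.23) and the mitophagy gene Bnip3 (2.13 ± 0.22) rose, each with every obese tumour above every lean one. Hif1a, Epas1, Egln3 and Car9 are named because of their values: Hif1a, a hypoxia-inducible factor, rose (1.61 ± 0.44), while Epas1, the factor best known in endothelium, stood at 14.8 ± 5.57 CPM in obese and 90.5 ± 42.3 CPM in lean tumours (−2.61 ± 0.39). Egln3, a prolyl hydroxylase that hypoxia-inducible factors induce, was the other gene called lower, at 127 ± 40.5 CPM in obese and 260 ± 77.1 CPM in lean tumours (−1.04 ± 0.29, edgeR adjusted p = 0.0159). Car9, a carbonic anhydrase and hypoxia target, stood at 19.5 ± 25.2 CPM in obese and 92 ± 43.1 CPM in lean tumours and did not pass (−2.24 ± 0.90, edgeR adjusted p = 0.0604). The upper end of the Vegfa interval, 0.64, is below the list median. Whether Vegfa differed from these genes was not tested.

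**Figure D4:**
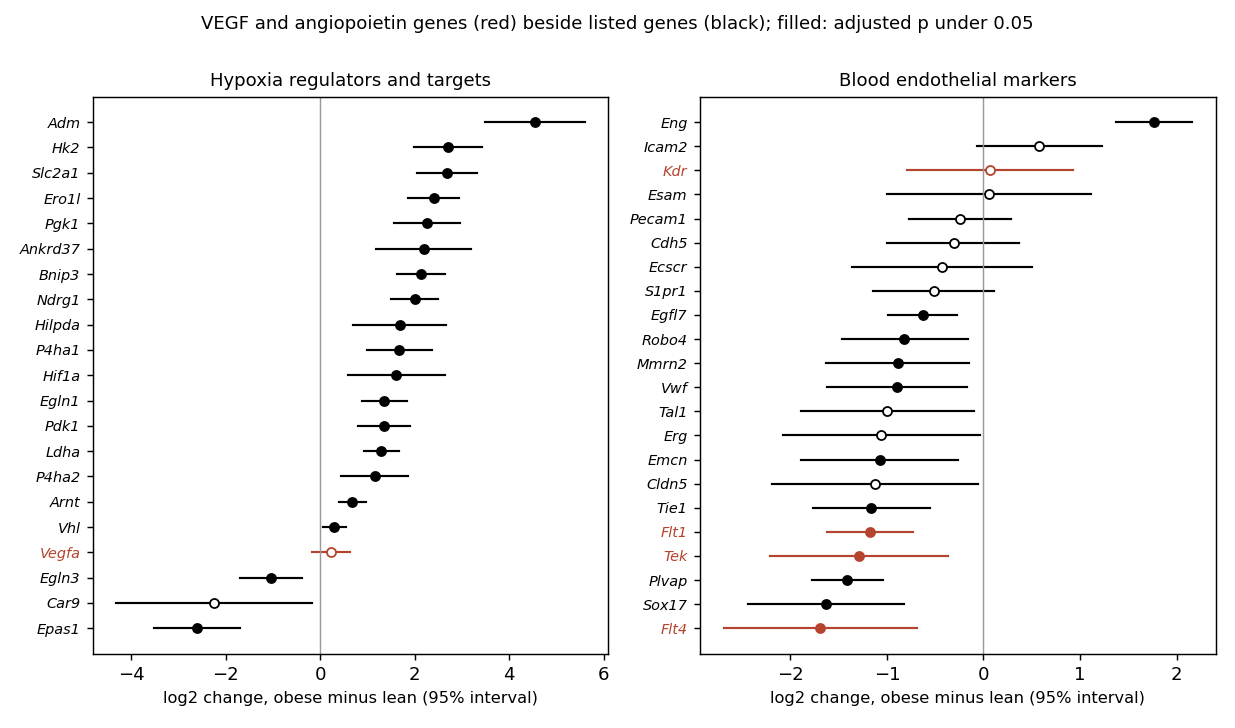
Log2 changes, obese minus lean, with 95% intervals from edgeR: Vegfa (red) beside 20 hypoxia genes (black) at the left, and the 4 receptors (red) beside 18 blood endothelial markers (black) at the right; filled points passed an adjusted p of 0.05. Vegfa at 0.23 lies below the 17 genes called higher, and Kdr at 0.07 lies above Flt1, Tek and Flt4.

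Marker RNA of other cell types, some of which carry these receptors or make these ligands, differed in part as well. Over all tested genes 30.9% were called higher and 28.4% lower, the background for the counts here and in the next paragraph. Of 10 mural cell markers 7 were called lower and 1 higher (median −2.0), with summed levels of 223 to 285 CPM in obese and 288 to 2870 CPM in lean tumours, the highest in lean replicate 2. Without obese replicates 1, 2 or 4 the number lower was 4, 3 and 4, and without lean replicate 2 it was 3. The pericyte genes Notch3 (−3.79 ± 0.66, or −4.66 without obese replicate 3), Kcnj8 (−2.47 ± 0.52) and Mcam (−1.68 ± 0.27), which endothelium also expresses, fell, whereas Pdgfrb, shared with fibroblasts, rose (1.8 ± 0.35). Of the 6 lymphatic markers 3 could be tested and 2 fell, Pdpn (−2.92 ± 0.75, or −1.88 without lean replicate 2) and Reln (−3.58 ± 0.90, or −2.89 without it). Both genes are also made outside lymphatic vessels. Lyve1, the other marker tested, stood at 5.4 ± 2.05 CPM in obese and 6.05 ± 3.47 CPM in lean tumours. It did not pass (−0.16 ± 0.53, edgeR adjusted p = 0.801). The list summed to 15.6 to 21.1 CPM in obese and 29.6 to 242 CPM in lean tumours. Of the defining lymphatic genes, Prox1 averaged 0.0559 ± 0.0821 CPM in obese and 0.497 ± 0.399 CPM in lean tumours, and Ccl21a and Mmrn1 had a count of 0 throughout. Prox1, Ccl21a and Mmrn1 were thus low or at 0, and which cells the Flt4 RNA came from was not tested. A count of 0 need not mean absent RNA. The T cell gene Trac was also at 0 throughout, while Cd3e had 49 to 776 counts.

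Macrophage markers, whose cells can make Vegfa and carry Flt1, were called higher for 5 of 8 genes and lower for 1, with summed levels of 1090 to 1300 CPM in obese and 499 to 1190 CPM in lean tumours. The number higher was 5 whichever tumour was left out, while the number lower was 2 without lean replicate 2 and 0 without any 1 of the others. Platelet and megakaryocyte markers summed to 13.9 to 94.5 CPM in obese and 13.3 to 22.6 CPM in lean tumours, with 2 genes called higher and 2 lower of 4 tested, and 1 higher without lean replicates 3 or 4. Neutrophil markers summed to 495 CPM in obese replicate 1, against 20.5 to 59.7 CPM in the other obese and 21.7 to 62.4 CPM in the lean tumours. Of their 4 tested genes edgeR and DESeq2 each called 0, with 0 at an unadjusted edgeR p under 0.05, and limma-voom with quality weights called 1 higher. With a tumour left out, edgeR called up to 2 of these genes higher. Fibroblast markers summed to 334 to 1540 CPM in obese and 725 to 937 CPM in lean tumours, with 1 called higher and 2 lower of 6. Adipocyte markers summed to 24.4 to 440 CPM in obese and 131 to 502 CPM in lean tumours, with 1 called lower of 6, 4 without obese replicate 4, and 0 without obese replicates 1 or 2 or lean replicates 1, 2 or 3. Skeletal muscle markers summed to 1.53 to 164 CPM in obese and 16.9 to 1090 CPM in lean tumours, and muscle can also make Vegfa and Vegfb. Of 5 muscle genes edgeR called 0, with 1 at an unadjusted p under 0.05, and DESeq2 called 3 lower. EdgeR called up to 3 of them lower when a tumour was left out. Glial markers summed to 1.11 to 7.87 CPM in obese and 30.6 to 246 CPM in lean tumours (3 of 4 lower), T cell markers to 16.2 to 50.9 CPM in obese and 65.5 to 165 CPM in lean tumours (5 of 5 tested lower), and B cell markers to 2.48 to 8.90 CPM in obese and 22.2 to 52.3 CPM in lean tumours (4 of 4 lower). Erythroid markers summed to at most 10.7 CPM in obese and 9.85 CPM in lean tumours. These sums were mostly Alas2, at 10.5 CPM in obese replicate 3 and 9.48 CPM in lean replicate 1. The listed globin genes had at most 15 counts in any library, and blood content was not tested. Alas2, the 1 erythroid marker that could be tested, was not called by edgeR or DESeq2 but was lower by limma-voom. Of the 7 epithelial markers 3 were called lower, and 7 without obese replicate 3. The part of these cells in the changes of the ligands and receptors was not tested.

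Levels can be compared between genes per kilobase of exon, where the order of the 10 genes differed between the groups. In obese tumours the mean levels were 23.1 ± 6.37 CPM per kb for Vegfb, 13.8 ± 2.48 for Vegfa, 8.42 ± 3.99 for Pgf, 4.69 ± 1.62 for Angpt2 and 3.21 ± 0.445 for Kdr (SD, n = 4). Below them came Vegfc at 1.41, Flt1 at 1.16, Tek at 0.912, Flt4 at 0.333 and Angpt1 at 0.266 CPM per kb. Neighbours in this order overlapped between tumours except for Tek and Flt4. In lean tumours Pgf led at 59.3 ± 28.4 CPM per kb, above Vegfa at 11.7 ± 1.88 and Vegfb at 11.2 ± 1.12, and then came Vegfc at 4.45, Kdr at 3.05, Flt1 at 2.63, Tek at 2.23, Angpt1 at 1.79, Angpt2 at 1.51 and Flt4 at 1.08 CPM per kb. There, neighbours overlapped except Pgf with Vegfa and Vegfb with Vegfc. Among the ligands of Flt1, then, Pgf had the highest mean level in lean tumours and the lowest in obese ones.

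**Figure D5:**
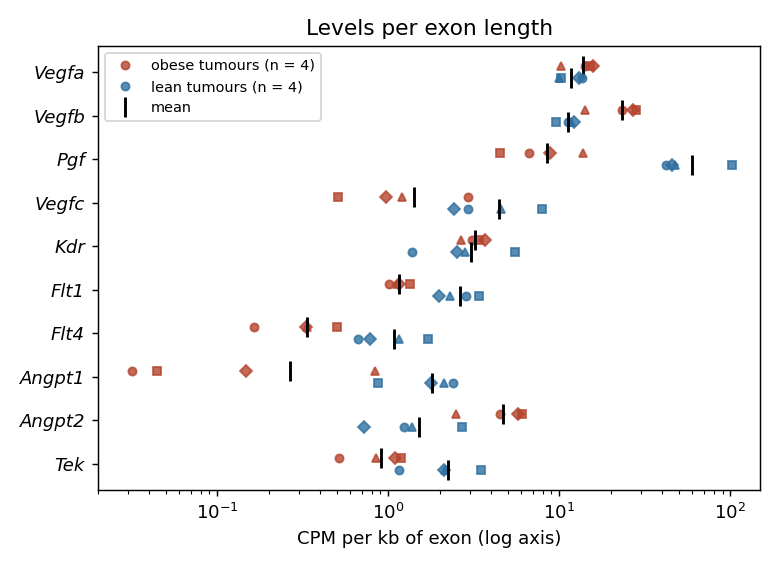
Level of each gene in every tumour as CPM per kb of exon (log axis), obese above lean within each row; vertical ticks are group means (n = 4). Pgf has a mean of 8.42 in obese and 59.3 in lean tumours.

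The genes with the nearest profiles were found by the root mean square (RMS) difference of log2 CPM, centred on each gene's mean over the 8 tumours. For Tek the nearest were Evi5l (0.144), the endothelial sialomucin gene Emcn (0.147) and Ehbp1 (0.181). For Flt4 they were Vash1 (0.119), Arhgef15 (0.153), known from endothelium, and Skida1 (0.214). For Flt1 they were Lpar1 (0.159), Slc39a8 (0.161) and Yeats2 (0.197), and for Kdr St6galnac6 (0.166), Tmem64 (0.210) and Elovl5 (0.230). For Angpt2 they were the adenylate kinase gene Ak4 (0.138), the amino acid transporter gene Slc7a1 (0.165) and Ticrr (0.222). For Vegfa they were Gon4l (0.102), Prr3 (0.103) and Vac14 (0.116), and for Vegfb Cep250 (0.10), Rps6ka4 (0.104) and Zfp777 (0.112). Pgf was nearest to Snx22 (0.215), Tmem38b (0.224) and Ssbp2 (0.265), Vegfc to the hyaluronan synthase gene Has2 (0.276), Adra2a (0.363) and Dll1 (0.382), and Angpt1 to Fam189a2 (0.201), Fam213a (0.303) and Cd81 (0.304). No member had another member among its 3 nearest genes.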

How the data were processed

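RNA of 8 tumours was counted per gene. The deposited file holds counts of reads per Ensembl gene, not normalized, with 1 column per tumour and 0 further columns. Per the submitters' processing notes, the build was mm10 and the tools were STAR 2.5.2b, HTSeq, cutadapt 1.12, CASAVA 1.8 and bcl2fastq 2.18.0.12. The annotation and strand setting are not given in the sources used here. Symbols, exon lengths and coordinates (GRCm38, 1-based) came from GENCODE M21, which named 49326 IDs. Libraries held 25.7 to 66.7 M counts.

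Genes were filtered by filterByExpr (minimum count 10, minimum total 15), scaled by TMM factors and tested, obese against lean, with edgeR 4.0.16 (robust quasi-likelihood F test, two-sided) in R 4.3.3, adjusted over all 14887 tested genes. SE is the log2 change over the square root of F, and intervals use the test's degrees of freedom. Ratios used a pseudocount of 0.1 CPM and exact permutation tests. The fit was tested on simulated data built on the obese and lean libraries (14744 genes), in which 200 were given a change. It called 8.24% of 85 genes given a 2-fold change and 52.2% of 115 given a 4-fold one, 0 of them with the wrong sign. In the tumours 59.2% of all tested genes were called. The share found when that many genes change was not tested. Alternatives were other scalings and filters, limma 3.58.1 (voom, with and without sample quality weights), DESeq2 1.42.0, GC and exon length offsets (99.1% of tested genes) and leaving out each tumour.

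The 10 genes and the lists were chosen with earlier results of these data known. List counts under the alternatives were added after the data were seen. List genes were named by a rule: up to 4 with the smallest p among those called. Nearest genes were the 3 of smallest RMS difference among genes with a mean log2 CPM of at least 0. The motif GCGTG was added after the data were seen. Sequences are RefSeq promoter windows (GRCm38.p6).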

Additional observations from a re-analysis of the deposited data

Results flagged for a closer look

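In groups of 4 tumours, 16 of 128 sets of values (12.5%) held 1 tumour far from the other 3. The cut-off used picks about 1 in 20 sets of independent, normally distributed values. These sets come from the same tumours and need not be normally distributed, so 1 in 20 is not their chance rate. Among the ligands, Pgf stood at 295 CPM in lean replicate 2 (other lean tumours 122 to 138) and Angpt1 at 4.37 CPM in obese replicate 3 (other obese tumours 0.165 to 0.768). Obese replicate 3 was also the distant tumour for Pcsk7 (51.5 CPM, others 29.9 to 31.6), Timp3 (150 CPM), Foxo1 (29.6 CPM, others 3.67 to 6.38) and Pik3r1 (163 CPM, others 26.3 to 37.5). The same tumour stood apart in the summed CPM of mural markers (223, others 279 to 285), angiogenesis inhibitors (2560, others 2860 to 2910), erythroid markers (10.7, others 0.396 to 0.720) and glial markers (7.87, others 1.11 to 1.99). Lean replicate 2 stood apart for Foxo1 (110 CPM, other lean tumours 80.4 to 84.8) and in the sum of receptor signalling genes (2350, others 1890 to 1970). Lean replicate 1 stood apart in the sums of erythroid (9.85, others 4.27 to 4.61) and epithelial markers (3070, others 2030 to 2130). In obese replicate 3 and lean replicate 1 the erythroid sum was mostly Alas2. Obese replicate 1 stood apart for Pdpn (18.6 CPM, others 8.85 to 10.4) and in the sum of neutrophil markers (495, others 20.5 to 59.7). The cause was not tested.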

How the results depend on the processing

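No paired analysis was possible because the replicate numbers only name tumours. Over 17 alternatives for each of the 10 genes, 148 of 170 values kept direction and side of the threshold. The calls of Vegfb, Pgf, Angpt2, Flt1 and Flt4 held in all 17. The change of Kdr, which never passed, turned to −0.14 under upper quartile scaling, −0.13 under library size alone, −0.03 with a filter of 1 CPM in 4 tumours, −0.17 without lean replicate 1 and −0.02 without lean replicate 4; its left-out range was −0.17 to 0.52. The number of the 10 genes called lower was 3 to 5 when a tumour was left out. Over all genes, 3612 to 5595 were called higher and 3136 to 5810 lower across the alternatives. Ratio differences when a tumour was left out were 4.67 to 6.34 for Angpt2 to Angpt1, 0.65 to 1.04 for Kdr, −0.64 to −0.36 for Flt1, −0.77 to −0.41 for Tek and −1.22 to −0.79 for Flt4 (markers as denominator). A pseudocount of 1 CPM gave 3.87 for Angpt2 to Angpt1 and 0.73 for Kdr. Summed markers gave 0.24 for Kdr, −1.22 for Tek, −1.14 for Flt1 and −1.65 for Flt4. The cause was not tested. Angpt1 in obese tumours rests on 4 to 226 counts.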
